A study of Homo sapiens with 6 samples.

Results

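The genes described here are the NF-kB transcription factors, their inhibitors and a set of chemokine, cytokine and survival genes that NF-kB is known to drive. The set was given as 33 gene symbols. Of these, 31 had a row on the array that was paired with exactly 1 gene symbol, out of 18417 genes with such a row, and BIRC3 and CSF2 are not analysed here. IL8 is listed as CXCL8 in newer annotation and is called IL8 below. Where a gene had several rows, the row with the highest mean over all arrays stood for it.

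Expression was measured in AGS cells, an established human gastric adenocarcinoma line that is known to carry an activating CTNNB1 mutation. One group received siRNA to CTNNB1, which encodes beta-catenin, and the other a control siRNA, and RNA was taken 48 hours later. Each group held 3 Affymetrix Human Gene 1.0 ST arrays, named biological replicates in the titles. All groups share the 1 cell line, the serum-containing medium and the transfection, and no group was left untransfected or was given an inflammatory stimulus. The number of siRNAs in the reagent is not given in the sources used here.

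NF-kB proteins are dimers of the REL family. In resting cells they are bound in the cytoplasm by inhibitors of the IkB family. Signals from receptors for TNF, interleukin 1 or bacterial products activate a kinase that marks the inhibitor for destruction, and the released dimer enters the nucleus and binds kB motifs in the promoters of its targets. These targets include the inhibitors themselves, which close a feedback loop, and chemokines that attract neutrophils and lymphocytes. In the stomach, epithelial cells are known to secrete IL8 through this route on contact with Helicobacter pylori.

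The kB motif was looked for in the promoter windows of these genes, because NF-kB dimers bind it. RefSeq promoter windows of GRCh38.p14, each running from 250 bases before to 50 bases after an annotated start, were on hand for 26 of the 33 symbols. The windows of CCL2, CCL5, CSF1, IER3, LIF, NFKBIE and RELB are not used here. The motif GGGANTTTCC, read on both strands, is a narrow form of the kB motif. It occurred in the windows of 12 of the 26 genes (46.2%), against 185 of all 27305 genes in the table (0.678%) and 0.558% of the 35116 windows. All of the matches lay between 99 and 12 bases before the start. The set was assembled from known NF-kB genes, so this share describes how it was made. The matches are printed 5′ to 3′ on the strand that carries the motif, with the motif in capitals and 10 bases on each side, so that the shared bases can be compared.
CXCL1 (chr4:73869304-73869333, plus strand): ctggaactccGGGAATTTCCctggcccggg
CXCL2 (chr4:74099254-74099283, minus strand): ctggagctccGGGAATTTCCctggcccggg
CXCL3 (chr4:74038749-74038778, minus strand): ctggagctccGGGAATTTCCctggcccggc
CXCL5 (chr4:73998749-73998778, minus strand): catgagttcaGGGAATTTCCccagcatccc
NFKBIA (chr14:35404811-35404840, plus strand): gtcaggctcgGGGAATTTCCaagccagtca
NFKB1 (chr4:102501300-102501329, plus strand): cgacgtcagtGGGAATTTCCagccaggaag
NFKB2 (chr10:102395674-102395703, plus strand): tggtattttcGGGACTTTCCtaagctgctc
REL (chr2:60881518-60881547, minus strand): ctggcgggagGGGAATTTCCcgcggctgac
TNFAIP3 (chr6:137867182-137867211, minus strand): ggatttccacGGGACTTTCCaaagtcacgt
LTB (chr6:31582492-31582521, plus strand): acacctggctGGGACTTTCCgcacacccct
IL6 (chr7:22727117-22727146, plus strand): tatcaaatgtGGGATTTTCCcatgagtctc
IL32 (chr16:3065294-3065323, plus strand): cctgtactcaGGGAGTTTCCccagccagct

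The windows of CXCL1, CXCL2 and CXCL3 carry the motif in almost the same surroundings, at 79, 78 and 79 bases before their starts. These 3 chemokine genes are close relatives and lie in 1 cluster on chromosome 4 with IL8 and CXCL5. CXCL5, CXCL3 and CXCL2 are direct neighbours there, as are TNF and LTB on chromosome 6 and IL1A and IL1B on chromosome 2.

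**Figure D1:**
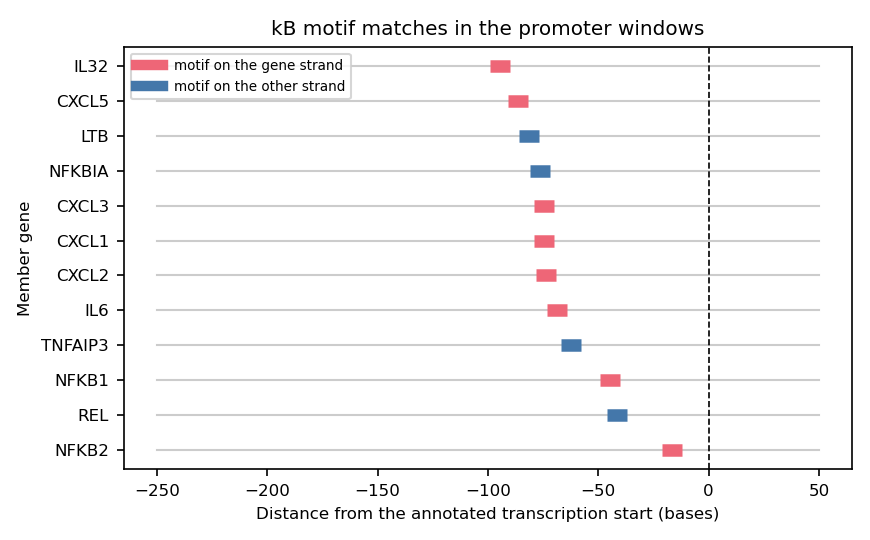
Position of each match of the narrow kB motif in the promoter windows of the 12 genes that have one, as distance in bases from the annotated transcription start (0, dashed line). Grey lines are the windows from 250 bases before to 50 bases after the start; red marks lie on the gene strand and blue marks on the other strand. All matches sit upstream, between 99 and 12 bases before the start.

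A second motif was searched because beta-catenin acts through TCF and LEF factors. The letters ATCAAAG and TTCAAAG, on both strands, occurred in 6.86% of all windows and for 8.35% of all 27305 genes. Among the 26 genes they occurred in the window of 1 (3.85%), IL8. The IL8 window held no match of the narrow kB motif, though it holds tggaatttcc, which differs from that motif in the first base. The match of the second motif began 194 bases before the IL8 start. A match is a run of letters, not a measured binding site. It is shown in capitals in the whole IL8 window, the single window among these genes that holds it.
IL8 (chr4:73740319-73740618, plus strand): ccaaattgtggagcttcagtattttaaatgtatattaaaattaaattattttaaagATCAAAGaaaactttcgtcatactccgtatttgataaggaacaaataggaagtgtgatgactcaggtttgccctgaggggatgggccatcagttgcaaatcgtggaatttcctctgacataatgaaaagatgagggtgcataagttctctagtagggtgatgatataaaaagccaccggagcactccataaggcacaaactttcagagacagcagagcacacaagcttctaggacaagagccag

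CTNNB1 itself was lower on every CTNNB1 siRNA array (10.27, 10.78 and 10.58 on the log2 scale) than on any control array (11.92, 11.76 and 11.75), with 41.5% of the control level left. Its log2 difference of -1.27 (SE 0.17) did not pass after adjustment (adjusted p = 0.232 in limma). Array medians lay between 5.38 and 5.46. 1 array, CTNNB1 siRNA replicate 1, was the least like the rest. It correlated with each of them at 0.962 to 0.965 across the table's rows, against 0.983 to 0.988 among the others, so values without it are given beside the results it changes. Epithelial markers were present on all arrays, with KRT8, a keratin of simple epithelia, at 11.93 to 13.18 and CDH1, or E-cadherin, at 6.40 to 7.22. The summed log2 level of 7 markers was 67.9 to 69.0 on control arrays and 70.5 to 73.4 on CTNNB1 siRNA arrays, and all 7 were higher on average. PTPRC, which marks all white blood cells, was at 2.60 to 2.79, and 10 of 14 immune markers lay among the dimmest 40% of rows. Their summed level was 69.9 to 72.0 on control arrays and 67.4 to 73.1 on CTNNB1 siRNA arrays. Their brightest gene was LYZ, or lysozyme, which gastric epithelium also makes. CD68 at 7.86 to 8.85, TYROBP at 6.30 to 7.02 and CSF1R at 5.43 to 6.16 were not dim either. CD68 was higher with CTNNB1 siRNA (difference 0.53, SE 0.23, groups overlapping). Of the 14 immune markers 5 were higher and 9 lower. Of 11 fibroblast and endothelial markers 9 were dim, with summed levels of 47.9 to 49.0 and 48.5 to 49.96. LUM was the dimmest and COL1A1 the brightest. COL1A1 was at 6.40 to 7.12, near the level of CDH1, and its groups were apart (difference 0.36, SE 0.16). Of the 11 markers 8 were higher and 3 lower. The part of these markers in the results below was not tested.

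No NF-kB gene of the set passed the test in limma, the linear model fitted over 19460 rows, after Benjamini-Hochberg adjustment. Adjusted p ran from 0.816 to 0.982 over the 31 genes, where 0.00514% of all rows passed at 0.05 (1 row, that of AKR1B10, an aldo-keto reductase outside the set, named here after its values were seen). More of them were higher than lower: 21 of 31 were higher with CTNNB1 siRNA and 10 lower, with a median log2 difference of 0.076, whereas 49.1% of all tested genes were higher and their median was -0.0052. Below an unadjusted p of 0.05 lay 2 higher genes, CCL5 and TNFAIP2, and 0 lower ones, where 3.04% of all rows were higher and 2.60% lower at that level. With 3 arrays against 3, a 2-sided exact permutation test cannot give a p below 0.1, and complete separation gives that value. Each array averages a whole culture, in which fewer expressing cells and less RNA per cell cannot be told apart.

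The mean log2 level of the 31 genes was 6.21, 6.31 and 6.29 on control siRNA replicates 1 to 3. On CTNNB1 siRNA replicates 1 to 3 it was 6.16, 6.46 and 6.45. The lowest of the 6 values and the 2 highest thus came from CTNNB1 siRNA arrays, and the groups overlapped. The group means were 6.27 ± 0.052 (SD, n = 3) and 6.35 ± 0.17 (SD, n = 3), a difference of 0.084, which is smaller than the spread among the CTNNB1 siRNA arrays. Without CTNNB1 siRNA replicate 1 the difference was 0.18, without replicate 2 it was 0.032 and without replicate 3 it was 0.038.

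**Figure D2:**
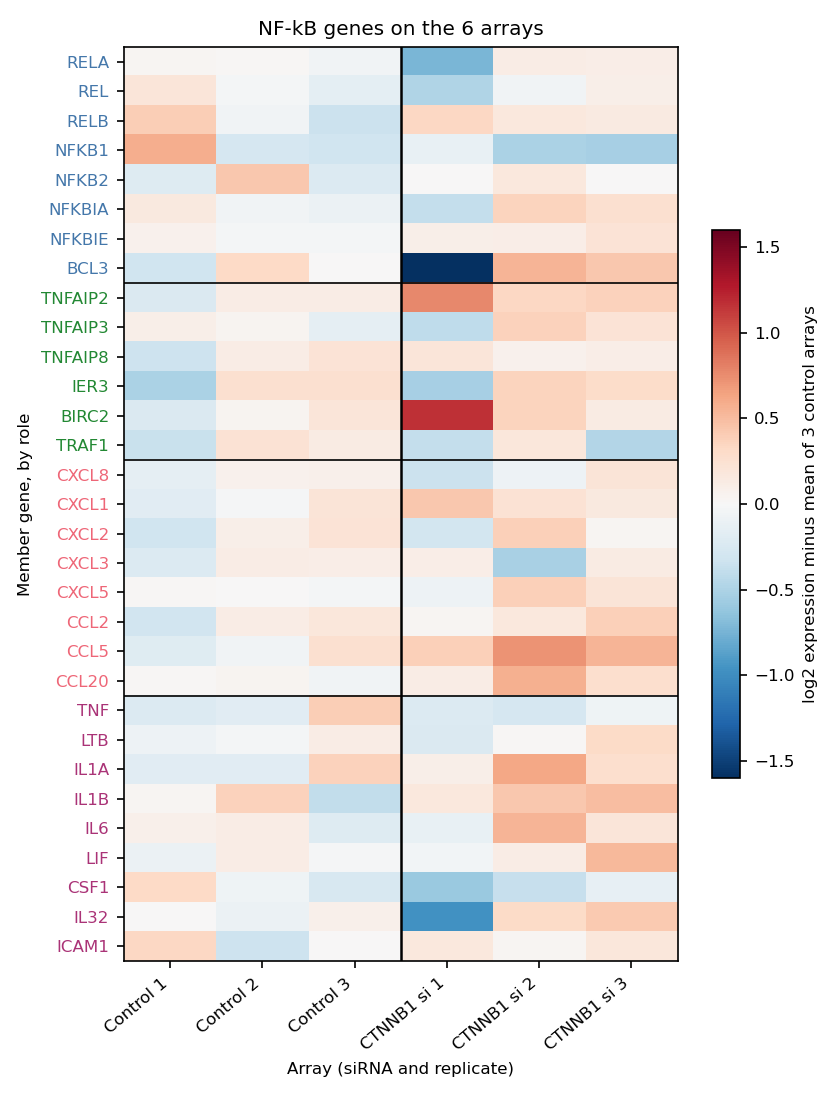
Log2 expression of the 31 measured genes (rows, grouped by role and coloured by it) on the 6 arrays (columns), each minus that gene's mean over the 3 control arrays; IL8 is shown as CXCL8. Red is above and blue below the control mean; BCL3, IL32 and RELA are dark blue on CTNNB1 siRNA replicate 1 and pale red on replicates 2 and 3.

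Individual genes showed the same split. CTNNB1 siRNA replicate 2 was the highest of the 6 arrays for 11 of the 31 genes (35.5%, against 11.4% of all rows), and replicate 3 for 8 (25.8%, against 17.4%). CTNNB1 siRNA replicate 1 was the highest for 3 (9.68%, against 24.7% of all rows) and the lowest for 11 (35.5%, against 31.3%). It lay below the next array by more than 0.5 for RELA, BCL3 and IL32 (9.68%, against 7.81% of all rows), and above it by more than 0.5 for BIRC2 (3.23%, against 6.99%). Such gaps were thus about as common on this array among all rows. With that array left out, 26 of 31 genes were higher, with a median of 0.20, while 49.5% of all tested genes were higher and their median was -0.0024.

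Among the transcription factors, RELA, the p65 subunit that carries the main activation domain, was 7.84, 7.82 and 7.75 on the control arrays and 7.07, 7.92 and 7.91 on the CTNNB1 siRNA arrays. Replicate 1 with CTNNB1 siRNA was far below the other 5 arrays, and replicates 2 and 3 were slightly above all controls. Its log2 difference was accordingly -0.17 (95% confidence interval -0.71 to 0.38), and 0.12 without that array. REL, the c-Rel subunit best known from lymphocytes, was 8.05, 7.83 and 7.70 in control cells and 7.38, 7.81 and 7.96 with CTNNB1 siRNA. Its groups overlapped (difference -0.14, SE 0.19; 0.031 without CTNNB1 siRNA replicate 1).

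NFKB1, which encodes the p50 subunit and its precursor p105, was 8.25, 7.40 and 7.34 on control arrays and 7.55, 7.16 and 7.13 on CTNNB1 siRNA arrays. Both replicate 1 arrays were the high ones of their group, and the groups overlapped. The difference was -0.39 (95% confidence interval -0.99 to 0.21), the most negative of the set, but it was -0.093 without control siRNA replicate 1. Without CTNNB1 siRNA replicate 1 it was -0.52, and NFKB1 was then the 1 gene of the set with all CTNNB1 siRNA arrays below all controls. NFKB2, the precursor of p52 in the alternative pathway, was 7.36, 8.0 and 7.35 against 7.57, 7.74 and 7.58, and differed by 0.057 (SE 0.20). RELB, the partner of p52, was 6.78, 6.34 and 6.05 against 6.72, 6.56 and 6.54. All 3 of its CTNNB1 siRNA values fell within the control range, and its difference of 0.22 (SE 0.20) was 0.41 without control siRNA replicate 1 and 0.045 without replicate 3.

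The inhibitors gave small differences. NFKBIA, or IkB alpha, is the feedback inhibitor that NF-kB induces most directly. It was 8.57, 8.36 and 8.32 in control cells and 8.04, 8.77 and 8.67 with CTNNB1 siRNA, a difference of 0.076 (95% confidence interval -0.41 to 0.56). Replicate 1 was again the lowest array and the other 2 the highest, and the difference without it was 0.30. NFKBIE, or IkB epsilon, was 6.20, 6.09 and 6.09 in control cells and 6.22, 6.23 and 6.34 with CTNNB1 siRNA. These groups were apart, by the narrowest of margins, and the difference was 0.14 (95% confidence interval -0.16 to 0.43). BCL3, an atypical IkB protein that works in the nucleus with p50 and p52, had the widest spread of the set. It was 9.40, 10.03 and 9.72 on control arrays and 8.09, 10.26 and 10.15 on CTNNB1 siRNA arrays, so the first of the latter was the lowest of all and the other 2 the highest. Its difference of -0.22 (SE 0.53) turned to 0.48 (SE 0.19) without CTNNB1 siRNA replicate 1, with an adjusted p of 0.665 in limma.

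TNFAIP2 belongs to a group of genes first found by their induction by TNF, with roles in membrane protrusions. It was 6.84, 7.19 and 7.19 on control arrays and 7.84, 7.41 and 7.44 on CTNNB1 siRNA arrays, so that the groups were apart. The control mean was 7.07 ± 0.21 (SD, n = 3) and the CTNNB1 siRNA mean 7.56 ± 0.24 (SD, n = 3). They differed 1.40-fold (log2 0.49, SE 0.18, adjusted p = 0.816 in limma). The difference was 0.35 to 0.57 over the fits that left out 1 array. Its window is printed because its groups were apart, and neither motif searched is in it.
TNFAIP2 (chr14:103123211-103123510, plus strand): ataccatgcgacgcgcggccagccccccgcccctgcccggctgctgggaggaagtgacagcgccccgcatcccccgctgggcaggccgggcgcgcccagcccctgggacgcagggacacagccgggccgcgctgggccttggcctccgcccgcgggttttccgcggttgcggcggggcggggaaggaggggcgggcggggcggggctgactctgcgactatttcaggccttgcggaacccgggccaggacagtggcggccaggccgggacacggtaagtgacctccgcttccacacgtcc

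TNFAIP3, or A20, is a ubiquitin-editing enzyme that shuts NF-kB signalling off. It was 6.58, 6.53 and 6.34 in control cells and 6.08, 6.85 and 6.70 with CTNNB1 siRNA, the same order as NFKBIA, with a difference of 0.060 (SE 0.21) that was 0.29 without CTNNB1 siRNA replicate 1. IER3, an immediate early gene of survival signalling, was 9.63, 10.39 and 10.39 against 9.60, 10.49 and 10.43. Replicate 1 was low in both groups, and the difference was 0.036 (SE 0.30), or 0.32 without CTNNB1 siRNA replicate 1. TNFAIP8, which encodes a regulator of cell death, differed by 0.13 (SE 0.17), with values of 6.65 to 7.19 in control cells that enclosed all 3 CTNNB1 siRNA values.

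BIRC2 encodes cIAP1, a ubiquitin ligase that carries the survival signal of the TNF receptor and holds the alternative pathway in check. It was 7.47, 7.75 and 7.90 in control cells and 8.88, 8.06 and 7.84 with CTNNB1 siRNA, the largest difference of the set beside CCL5 at 0.55 (95% confidence interval -0.07 to 1.18). The groups overlapped, and the value rested on CTNNB1 siRNA replicate 1: it was 0.24 without that array. TRAF1, an adaptor of TNF receptors, was dim at 3.16 to 3.85 over the 6 arrays and differed by -0.23 (SE 0.23), or -0.42 to -0.11 with 1 array left out. Rows are called dim here where their mean over the arrays lay below 5.36, among the lowest 40%, because the authors' RMA processing compresses differences there.

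**Figure D3:**
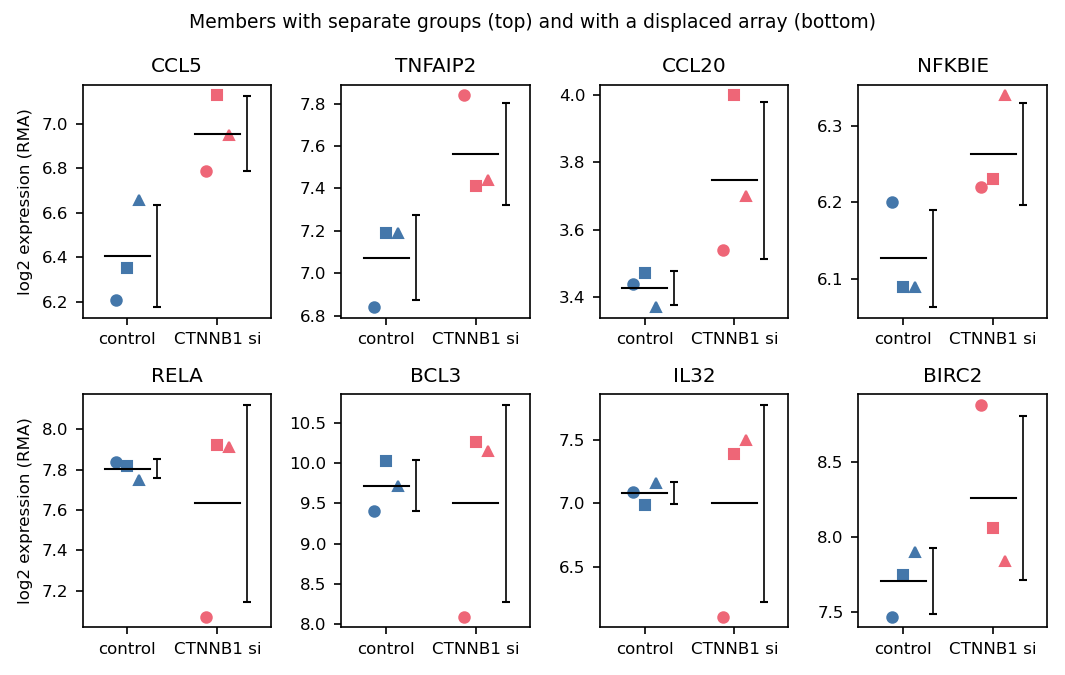
Log2 expression (RMA) of 8 genes on each array; circles, squares and triangles are replicates 1, 2 and 3, blue for control siRNA and red for CTNNB1 siRNA. Horizontal lines are group means and bars the SD over 3 arrays. In the top row each red point lies above each blue point; in the bottom row CTNNB1 siRNA replicate 1 lies far below (RELA, BCL3, IL32) or above (BIRC2) the other arrays.

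CCL5 showed the smallest p of the set. It encodes RANTES, a chemokine for T cells and monocytes that NF-kB and interferon regulatory factors are both known to induce. It was 6.21, 6.35 and 6.66 on control arrays and 6.79, 7.13 and 6.95 on CTNNB1 siRNA arrays, so every CTNNB1 siRNA array lay above every control. The control mean was 6.41 ± 0.23 (SD, n = 3) and the CTNNB1 siRNA mean 6.96 ± 0.17 (SD, n = 3). They differed 1.46-fold (log2 0.55, SE 0.17, adjusted p = 0.816 in limma). Leaving out 1 array at a time gave differences of 0.45 to 0.67, and 0.63 without CTNNB1 siRNA replicate 1 (adjusted p = 0.528 in limma).

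CCL20, the chemokine that draws dendritic cells and some T cells through the receptor CCR6, was 3.44, 3.47 and 3.37 in control cells and 3.54, 4.0 and 3.70 with CTNNB1 siRNA. The groups were apart, but the row was dim, so the size of its difference (0.32, SE 0.16; 0.19 without CTNNB1 siRNA replicate 2) is uncertain. Its window is printed for the same reason as that of TNFAIP2, and it too holds neither motif searched. The CCL20 window does hold ggaaaacccc, which on the other strand differs from the narrow kB motif in a single base.
CCL20 (chr2:227813592-227813891, plus strand): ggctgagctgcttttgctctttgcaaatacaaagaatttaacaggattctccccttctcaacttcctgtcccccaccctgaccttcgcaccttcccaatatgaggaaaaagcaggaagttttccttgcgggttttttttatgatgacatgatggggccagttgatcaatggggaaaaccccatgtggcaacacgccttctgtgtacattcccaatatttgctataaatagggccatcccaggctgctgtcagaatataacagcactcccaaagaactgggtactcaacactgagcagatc

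The neutrophil chemokines of the chromosome 4 cluster had overlapping groups. IL8, the chief neutrophil attractant of the stomach, was 5.25, 5.47 and 5.48 in control cells and 5.05, 5.32 and 5.61 with CTNNB1 siRNA, a difference of -0.075 (95% confidence interval -0.48 to 0.33). Its mean lay right at the limit below which rows are called dim. CXCL1 was 6.00, 6.16 and 6.39 against 6.62, 6.42 and 6.34, and the groups overlapped by a single pair of arrays (difference 0.28, SE 0.16). CXCL2 was 5.77, 6.18 and 6.30 against 5.79, 6.46 and 6.12, a difference of 0.038 (SE 0.22). CXCL3 differed by -0.10 (SE 0.21), with 4.67 on CTNNB1 siRNA replicate 2 as its lowest value, and 0.12 without that array. CXCL5 differed by 0.17 (SE 0.16), by 0.30 without CTNNB1 siRNA replicate 1 and by 0.065 without replicate 2. The rows of CXCL3 and CXCL5 were dim. The kB windows printed above for CXCL1, CXCL2 and CXCL3 are nearly alike, yet the 3 genes were not highest on the same CTNNB1 siRNA array. Because these genes are close relatives, their probes can share signal, which makes their single values uncertain. CCL2, a monocyte chemokine, was dim and differed by 0.19 (SE 0.18), or 0.04 without control siRNA replicate 1. The difference between CCL5 and these chemokines was not tested.

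Of the 9 cytokine and adhesion genes 4 were dim, namely TNF, IL1A, IL1B and IL6. TNF, the cytokine that gives the pathway its best known stimulus, was 4.46, 4.49 and 5.07 in control cells and 4.46, 4.40 and 4.60 with CTNNB1 siRNA. Its difference of -0.19 (SE 0.19) came with 1 high control array and was 0.012 without it. Its 3 rows on the array held identical values. LTB, a subunit of lymphotoxin that signals to the alternative pathway, was 6.55, 6.59 and 6.74 against 6.40, 6.64 and 6.93, with a difference of 0.027 (SE 0.17). TNF and LTB, neighbours on chromosome 6, thus gave no difference beyond the spread of the arrays.

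IL1A and IL1B, the neighbouring genes of interleukin 1, were dim but had among the larger differences of the set, 0.33 (SE 0.21) and 0.36 (SE 0.21). IL1B was 3.58, 3.91 and 3.15 in control cells and 3.71, 3.98 and 4.04 with CTNNB1 siRNA, where only the lowest CTNNB1 siRNA array fell inside the control range. IL1A was 2.63, 2.62 and 3.17 against 2.90, 3.43 and 3.08, so its groups overlapped as well. The difference was 0.16 for IL1B without control siRNA replicate 3 and 0.18 for IL1A without CTNNB1 siRNA replicate 2. IL6, an inducer of the acute phase response, was at 2.61 to 2.94 in control cells and 2.70 to 3.36 with CTNNB1 siRNA, and its difference was 0.21 (SE 0.20). It was 0.37 without CTNNB1 siRNA replicate 1 and 0.04 without replicate 2. LIF, a cytokine of the IL6 family, differed by 0.20 (SE 0.18), mainly through a value of 6.17 on CTNNB1 siRNA replicate 3, and by 0.036 without it.

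CSF1, the growth factor of macrophages, was 7.45, 7.07 and 6.88 in control cells and 6.54, 6.76 and 7.00 with CTNNB1 siRNA. It was lower on average, with a difference of -0.37 (95% confidence interval -0.82 to 0.09), and the groups overlapped. Without control siRNA replicate 1 the difference was -0.21. IL32, a cytokine of lymphocytes and epithelia, was 7.09, 6.99 and 7.16 against 6.11, 7.39 and 7.50. As for RELA and BCL3, CTNNB1 siRNA replicate 1 was the lowest array by a wide margin and the other 2 were the highest. The difference of -0.078 (SE 0.34) was 0.37 (SE 0.13) without that array, with an adjusted p of 0.648 in limma. ICAM1, an adhesion molecule for leukocytes that NF-kB induces on epithelium, was 9.13, 8.47 and 8.81 against 8.97, 8.84 and 8.99, and all CTNNB1 siRNA values fell within the control range (difference 0.13, SE 0.19).

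**Figure D4:**
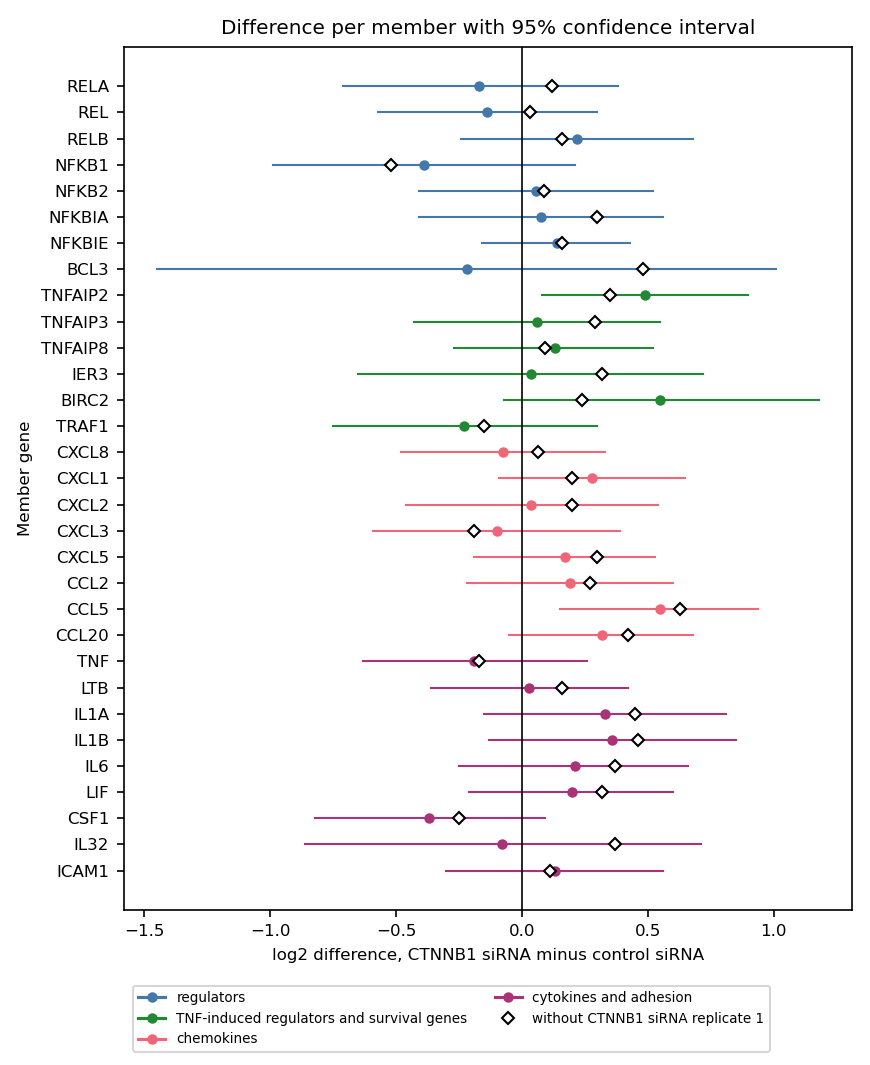
Log2 difference, CTNNB1 siRNA minus control siRNA, of each of the 31 genes (filled circles, coloured by role) with its 95% confidence interval from limma over all 6 arrays; IL8 is shown as CXCL8. White diamonds are the differences without CTNNB1 siRNA replicate 1. Only the intervals of CCL5 and TNFAIP2 lie wholly above 0, and the diamonds of RELA, REL, BCL3, IL8 and IL32 lie on the other side of 0 from their circles.

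Over the whole set, 4 of 31 genes (12.9%) had every CTNNB1 siRNA array above every control array, namely CCL5, TNFAIP2, CCL20 and NFKBIE, where 6.81% of all rows did. NFKBIE was no longer among them when each array was re-centred on its median. In the other direction there were 0, where 6.80% of all rows were lower on every CTNNB1 siRNA array. Without CTNNB1 siRNA replicate 1 there were 13 higher (41.9%, against 13.2% of all rows) and 1 lower (against 12.5%). The 13 were RELA, NFKBIA, NFKBIE, BCL3, TNFAIP2, TNFAIP3, IER3, CXCL5, CCL5, CCL20, IL1B, IL6 and IL32. Of these, CXCL5, CCL20, IL1B and IL6 were dim. Leaving out an array makes separation easier for every gene, and so the 2 pairs of shares are not to be set against each other. Below an unadjusted p of 0.05 lay 4 higher genes in that fit (BCL3, CCL5, CCL20 and IL32) and 0 lower ones, where 4.17% of all rows were higher and 3.17% lower. No gene of the set passed after adjustment in that fit either (smallest adjusted p = 0.528 in limma), where 0.0514% of all rows did. Nothing in the labels gives a ground for leaving that array out.

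By role, the chemokines had the highest median difference, 0.18, with 6 of 8 higher, and the 8 regulators the lowest, -0.04, with 4 higher and 4 lower. The 6 genes of the TNF-induced and survival group had a median of 0.093 with 5 higher, and the 9 cytokine and adhesion genes 0.13 with 6 higher. This order did not hold without CTNNB1 siRNA replicate 1. The medians were then 0.32 for the cytokine and adhesion genes, 0.27 for the TNF-induced and survival genes, 0.24 for the chemokines and 0.14 for the regulators, 7 of which were higher. The regulators were lowest on CTNNB1 siRNA replicate 1, where their mean lay 0.36 below the control mean, and 0.11 and 0.092 above it on replicates 2 and 3. The chemokines lay 0.042, 0.23 and 0.24 above their control mean on CTNNB1 siRNA replicates 1 to 3, with controls at -0.17, 0.048 and 0.12. The 12 genes with the narrow kB motif had a median difference of 0.048, with 8 higher and 4 lower, and the 12 other measured genes with a promoter window had 0.13, with 7 higher and 5 lower. Without CTNNB1 siRNA replicate 1 the medians were 0.20 and 0.18, with 10 higher in both. The narrow form misses kB motifs with other letters or outside the window. The split therefore does not part genes with a kB motif from genes without one.

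**Figure D5:**
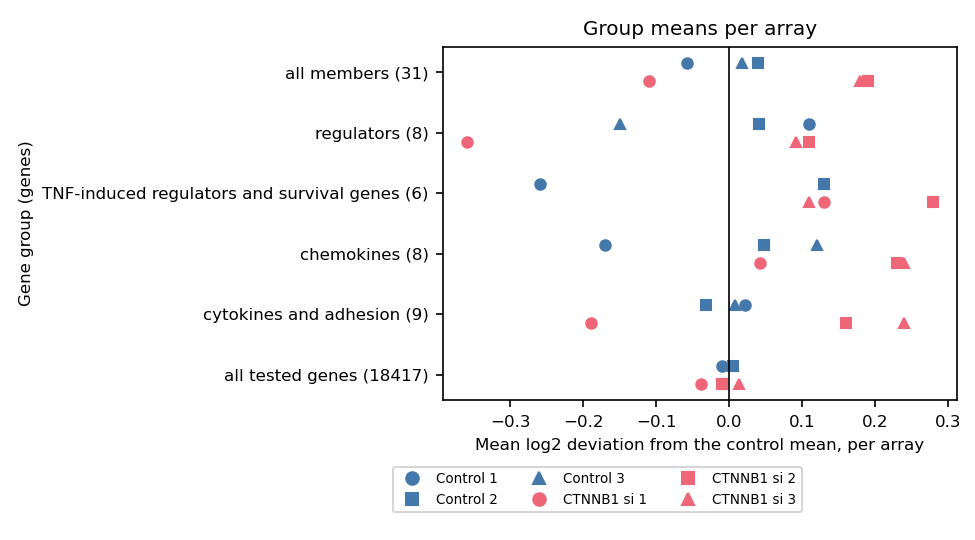
Mean log2 deviation from the control mean for each group of genes on each array; circles, squares and triangles are replicates 1, 2 and 3, blue for control siRNA and red for CTNNB1 siRNA, and the number of genes is given in brackets. For all members, CTNNB1 siRNA replicates 2 and 3 lie at 0.19 and 0.18 and replicate 1 at -0.11; the mean over all tested genes stays within 0.039 of 0 on each array.

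Beyond the set, 102 other genes of the pathway were measured, in 6 lists of receptors and adaptors, kinases and ubiquitin enzymes, the alternative pathway, other inhibitors, other targets, and receptors of the cytokines. Of these, 60 were higher (58.8%, against 49.1% of all tested genes) and 42 lower, with a median difference of 0.033. None passed after adjustment in limma (smallest adjusted p = 0.816). At an unadjusted p under 0.05 in limma 7 were higher and 2 lower, where 3.04% of all rows were higher and 2.60% lower. Groups were apart for 10 higher and 4 lower genes of the 102, where 6.81% and 6.80% of all rows were apart. The list of other inhibitors had the highest median, 0.32 over 15 genes, 10 of them higher, but 0.06 without CTNNB1 siRNA replicate 1. Its mean deviation from the control mean was 0.50, 0.065 and 0.10 on CTNNB1 siRNA replicates 1 to 3. ZC3H12A, a ribonuclease that degrades cytokine transcripts such as that of IL6, was 6.70, 6.90 and 6.91 in control cells and 7.63, 7.20 and 7.28 with CTNNB1 siRNA (difference 0.53, SE 0.16). NFKBIZ, a nuclear IkB protein, was 4.90, 5.46 and 5.43 against 5.64, 5.86 and 5.99 (0.57, SE 0.19), and 0.38 without control siRNA replicate 1. For both genes every CTNNB1 siRNA array lay above every control.

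Upstream, IL1RAP, the accessory chain of the interleukin 1 receptor, was 6.12, 6.46 and 6.24 in control cells and 6.77, 6.70 and 6.71 with CTNNB1 siRNA. The groups were apart, and the difference was 0.46 (SE 0.14). XIAP, an inhibitor of caspases related to BIRC2, differed by 0.39 (SE 0.16; 0.26 without CTNNB1 siRNA replicate 1), also with groups apart. LTA, the partner of LTB, was dim. It differed by -0.35 (SE 0.15) on 1 of its 3 rows and by -0.067 and -0.043 on the others, so its difference is uncertain. Among the receptors of the cytokines, IL1R2, a decoy receptor for interleukin 1, differed by 0.34 (SE 0.18), or 0.22 without control siRNA replicate 2. CCR2, the receptor of CCL2, differed by -0.39 (SE 0.23), or -0.13 without that array. IL1R2 and CCR2 were both dim, with overlapping groups.

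Other known targets lay in both directions, 20 of 37 higher and 17 lower. The largest difference was that of OLR1, at 9.88, 9.96 and 9.75 in control cells and 6.92, 9.57 and 9.13 with CTNNB1 siRNA. Its groups were apart, and its difference of -1.32 (SE 0.59) was -0.52 without CTNNB1 siRNA replicate 1. PTGS2, which encodes the inflammatory cyclooxygenase, was 7.83, 8.02 and 8.33 in control cells and 6.63, 7.66 and 7.56 with CTNNB1 siRNA, with groups apart. Its difference was -0.77 (SE 0.28), and -0.45 without CTNNB1 siRNA replicate 1. CFB, complement factor B, was 5.39, 6.04 and 6.02 against 6.64, 6.33 and 6.23, also apart (0.58, SE 0.21), and 0.37 without control siRNA replicate 1. Its 3 rows gave 0.52 to 0.70. C3, the central complement component, differed by 0.57 (SE 0.25; 0.31 without control siRNA replicate 1) and IL15, a growth factor of lymphocytes, by 0.42 (SE 0.17). Both were dim and had overlapping groups.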

How the data were processed

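Each row of the deposited table holds log2 values of 1 transcript cluster. The submitters' processing notes name RMA and Affymetrix Expression Console 1.1, and the log2 scale was read from the deposited values. RMA gives every array the same distribution of probe intensities before they are summarised into rows, which hides a shift common to most transcripts. The medians of the row values still ran from 5.38 to 5.46. The authors' annotation and build: not given in the sources used here. Total RNA (500 ng per sample) was labelled, per the labels' protocols. Array number limits the precision of every value.

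Of 33297 rows, 19460 were paired with exactly 1 symbol by the platform annotation and tested; symbols were updated through RefSeq gene identifiers for 19429. The test was limma 3.58.1 in R 4.3.3 (lmFit, then eBayes), 2-sided, without a block or filter, with Benjamini-Hochberg adjustment over all tested rows and a threshold of 0.05. The procedure was also run on simulated rows with independent noise on each array. No simulated array was displaced as CTNNB1 siRNA replicate 1 was, so that run does not cover such an array. Titles call the arrays biological replicates but name no separate cultures, so p reflects only how these arrays spread, which may be technical.

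The genes and lists were chosen with earlier results of these data known. Beyond the set, up to 4 genes per list with an unadjusted p under 0.05 are named, otherwise the 2 with the smallest p. Marker genes with the highest or lowest mean are named as well. OLR1, for its large difference, and the immune markers that were not dim were added after their values were seen. Alternatives were re-centred arrays, array weights, a trended robust prior, leaving out the dimmest 40%, a replicate block, all rows of a gene, a median, and each array left out. Promoter windows came from RefSeq (GRCh38.p14).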

Additional observations from a re-analysis of the deposited data

How the results depend on the processing

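The mean difference over the set stayed above 0 in all alternatives run, at 0.032 to 0.18 with 1 array left out and 0.068 to 0.15 otherwise. Of the 31 genes, 16 kept their direction in every fit and 15 did not, and no gene of the set passed in any fit. With array weights the difference turned for RELA (0.077), REL (0.043), BCL3 (0.31) and IL32 (0.26). With 1 array left out the differences ran from -0.31 to 0.12 for RELA, -0.26 to 0.031 for REL, -0.052 to 0.27 for NFKB2, -0.06 to 0.30 for NFKBIA, -0.60 to 0.48 for BCL3, -0.094 to 0.29 for TNFAIP3, -0.038 to 0.23 for TNFAIP8, -0.22 to 0.32 for IER3, -0.22 to 0.063 for IL8 (CXCL8), -0.13 to 0.20 for CXCL2, -0.21 to 0.12 for CXCL3, -0.29 to 0.012 for TNF, -0.11 to 0.16 for LTB, -0.33 to 0.37 for IL32 and -0.037 to 0.29 for ICAM1. All other alternatives kept the direction of each gene they held.

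Genes with groups apart numbered 4 to 13 higher and 0 to 1 lower with 1 array left out. There were 3 higher with re-centred arrays (NFKBIE lost) and 3 without the dimmest 40% (CCL20 not tested). With 1 array fewer, separation needs fewer orderings. Over all rows, 1 passed (AKR1B10); array weights gave 13, and re-centred arrays, the dimmest 40% left out and the replicate block gave 0 each (1163, 670 and 1123 rows at an unadjusted p under 0.05). Leaving out 1 array gave 0 to 10. CTNNB1 had an adjusted p of 0.232 in limma. It passed with array weights (-1.12, adjusted p = 0.0219 in limma) and not otherwise (adjusted p 0.189 to 0.646, and 0.052 to 0.937 with 1 array left out). The causes were not tested. Same-numbered arrays of the groups correlated by 0.092 to 0.12 in their deviations, more than any pair with unlike numbers (-0.1 to 0.028). Deviations were taken from each group's own mean and cancel within it, so high values for some pairs bring low ones for others. The main fit nevertheless did not pair same-numbered arrays, and whether they share an effect was not tested. With the replicate block the smallest adjusted p of the set was 0.743 in limma.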
